A study of Homo sapiens with 2 samples.

Results

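The 10 genes described here encode enzymes of the urea cycle (CPS1, ASS1 and ASL), of arginine and ornithine use (ARG2 and OAT), of polyamine synthesis (ODC1, AMD1, SRM and SMS) and of polyamine breakdown (SAT1). They were taken by gene symbol from a table of transcript expression of HepG2, an established line of human liver cancer cells. The set was selected on the FPKM values of this same comparison, which were known when it was chosen. All 10 were among the 11589 gene symbols of the table, with 34 of its 34714 transcripts. The study compared HepG2 cells exposed to fluid shear stress (FSS), the force of a fluid flowing past their surface, for 8 h with HepG2 cells in static culture. There was 1 library for FSS and 1 for static culture, both from cells of passage 10 to 15, and each held RNA mixed from 3 replicates. With 1 library per group no test across replicates was possible, so no p-value is given, and the effect of FSS and any other difference between the libraries cannot be told apart.

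The urea cycle turns ammonia from amino acid breakdown into urea, and in the body it runs mainly in hepatocytes. Ornithine, which the cycle regenerates, is also the starting point of the polyamines putrescine, spermidine and spermine, small positively charged molecules that bind nucleic acids and that dividing cells need. Polyamine synthesis is governed mostly by ornithine decarboxylase, whose protein is short-lived, and polyamines are broken down after acetylation by the enzyme that SAT1 encodes.

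Expression was given in FPKM (fragments scaled to transcript length and to the mapped total of the library), a level per length, and transcripts were summed to give the value of their gene. The log2 ratio is that of FPKM + 1 in FSS over static cells, and folds are on that scale, on which differences of low genes come out too small. The limit for calling a gene higher or lower was 1.5-fold. Summed FPKM came to 323352 under FSS and 325712 in static culture, and the sequencing depth is unknown. Of 11221 genes kept, which reached 0.5 FPKM in 1 library or both, the median log2 ratio was -0.25. Centred log2 ratios are those after subtracting -0.23, the median over genes that reached 5 FPKM. The reference genes GAPDH and ACTB had log2 ratios of 0.18 and 0.10, or 0.41 and 0.33 centred. Of 21 markers of hepatocytes or HepG2 cells, 17, among them ALB and AFP, were not analysed here. KRT8 and KRT18, keratins of simple epithelia, were at 302 and 265 FPKM in static cells and 202 and 275 FPKM in FSS cells. FOXA1 was at 5.69 and 7.41 FPKM, and ASGR1 was listed at 0 without flow and had 0.176 FPKM under FSS. Summed over the listed markers, 4 fibroblast genes were at 41.7 FPKM in static and 13.1 FPKM in FSS cells, 1 endothelial gene at 0.818 and 0.634 FPKM, and 1 blood cell gene at 1.56 and 5.22 FPKM. Their part in the results below was not tested.

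Sequence is shown where it tells the transcripts of a gene apart or where a start site bears on the results. All coordinates are on GRCh38, since the deposited table, which was made on hg19, holds none. SAT1 lies on chrX:23783173-23786226, on the plus strand, and its short transcripts differ from the full-length SAT1-204 by the intron sequence that they keep. The segments below run 5′ to 3′ from the GENCODE transcripts. Intron 2 (chrX:23783710-23783799, 90 bases) is kept in SAT1-201. Exon 3 (chrX:23783800-23783883, 84 bases) is in SAT1-201, SAT1-202 and SAT1-204. The start of intron 3 (chrX:23783884-23784044, 161 bases) is read in SAT1-201 and SAT1-202 up to their stop codon, which is in capitals.
SAT1 intron 2: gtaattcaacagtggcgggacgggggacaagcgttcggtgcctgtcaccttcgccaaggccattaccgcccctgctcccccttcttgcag
SAT1 exon 3: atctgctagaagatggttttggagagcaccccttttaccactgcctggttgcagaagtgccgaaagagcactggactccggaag
SAT1 intron 3 start: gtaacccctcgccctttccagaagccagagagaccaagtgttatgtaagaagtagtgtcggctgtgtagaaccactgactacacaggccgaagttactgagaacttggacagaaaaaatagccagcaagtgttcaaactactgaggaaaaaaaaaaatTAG

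Promoter windows of RefSeq (GRCh38.p14, 250 bases before to 50 after a start site) were searched for CACGTG, the E-box bound by MYC with MAX, since ODC1 and SRM are textbook MYC targets. The motif reads the same on both strands. It was present in 4 of the 16 windows of the 10 genes, and in 7.26% of all 35116 windows. The 4 windows belonged to SRM, ODC1, ASS1 and CPS1. ODC1 had 2 windows, of which 1 held 2 E-boxes. The other ODC1 window (chr2:10448278-10448577) held 0 and is not shown. The start of ODC1-201, the main ODC1 transcript, lies inside this window without an E-box. The start site of the window with E-boxes lies downstream of it, so these E-boxes are not at the start of the main transcript. The element TGATGNAAN, bound by ATF4 with CEBP factors and searched on both strands, was in 0 of the 16 windows and in 3.61% of all windows. The windows below are shown because the genes that carry the E-box had log2 ratios of both signs, with the E-box in capitals. Of these genes, SRM was within 1.5-fold as deposited and ASS1 was within it after centring. In SRM (chr1:11059969-11060268, minus strand) it began at position -199 from the start site. In ODC1 (chr2:10447963-10448262, minus strand) the E-boxes began at -29 and 5, and in ASS1 (chr9:130444711-130445010, plus strand) at -71. Like that of ODC1, the window of CPS1 with an E-box was not within 50 bases of the start of a listed transcript, and it is not shown. In its place stands the window at the internal start of CPS1-204 (chr2:210593105-210593404, plus strand), the most abundant CPS1 transcript, which held 0 E-boxes. A match of letters is a description and shows no binding.
SRM promoter: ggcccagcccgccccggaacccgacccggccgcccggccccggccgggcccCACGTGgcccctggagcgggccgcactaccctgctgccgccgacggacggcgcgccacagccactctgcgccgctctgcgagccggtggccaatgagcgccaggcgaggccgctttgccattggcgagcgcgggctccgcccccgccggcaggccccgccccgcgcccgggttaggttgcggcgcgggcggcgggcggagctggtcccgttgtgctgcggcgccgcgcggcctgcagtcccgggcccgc
ODC1 promoter: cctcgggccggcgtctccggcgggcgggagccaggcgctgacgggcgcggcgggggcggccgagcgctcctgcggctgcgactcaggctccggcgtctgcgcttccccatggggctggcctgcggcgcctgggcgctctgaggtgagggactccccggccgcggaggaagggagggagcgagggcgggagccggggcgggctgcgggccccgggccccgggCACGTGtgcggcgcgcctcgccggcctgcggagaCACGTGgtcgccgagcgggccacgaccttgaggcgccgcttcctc
ASS1 promoter: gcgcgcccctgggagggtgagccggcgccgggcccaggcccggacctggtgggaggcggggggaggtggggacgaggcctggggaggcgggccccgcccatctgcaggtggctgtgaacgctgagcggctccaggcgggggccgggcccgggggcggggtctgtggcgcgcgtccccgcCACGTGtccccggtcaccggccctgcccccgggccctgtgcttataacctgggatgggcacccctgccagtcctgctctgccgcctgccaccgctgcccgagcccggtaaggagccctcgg
CPS1-204 promoter: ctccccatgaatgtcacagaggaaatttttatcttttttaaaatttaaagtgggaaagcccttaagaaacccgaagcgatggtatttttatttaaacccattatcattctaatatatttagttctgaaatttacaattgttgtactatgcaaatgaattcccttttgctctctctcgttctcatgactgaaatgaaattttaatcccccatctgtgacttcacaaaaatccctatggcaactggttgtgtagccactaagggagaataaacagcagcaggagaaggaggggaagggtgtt

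CPS1 was far lower in FSS, ASS1 lay at the 1.5-fold limit below static, and SAT1 and ODC1 were higher. Of the 10 genes, 2 (ODC1 and SAT1) were higher in FSS by 1.5-fold or more and 2 (CPS1 and ASS1) at least 1.5-fold lower. After centring, 3 (ODC1, SRM and SAT1) were higher and 1 (CPS1) was lower. Among all 11221 genes, 10.5% were higher and 29.5% lower as deposited, and 17.8% and 17.9% after centring. The genes were chosen with these values known, so their counts are a description. All 10 passed the minimum of 0.5 FPKM. Their median log2 ratio was 0.02, against -0.25 for all genes. In bulk RNA, fewer cells that express a gene and less RNA per cell cannot be told apart.

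**Figure D1:**
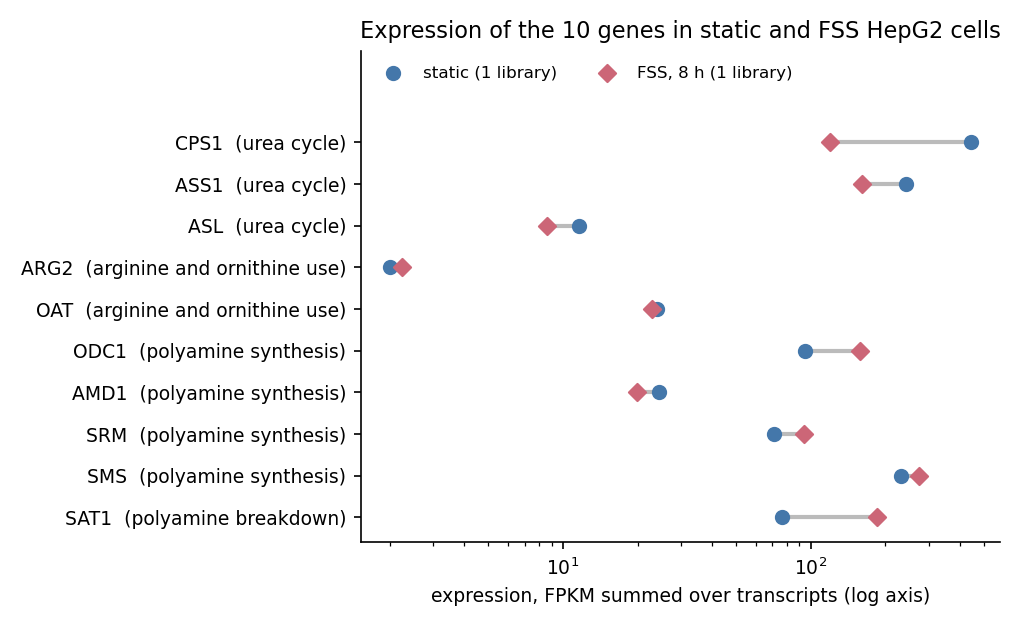
Expression of the 10 genes in FPKM, summed over transcripts, on a log axis, with circles for the static library and diamonds for the FSS library. The widest gap is that of CPS1, from 442 FPKM in static to 119 FPKM in FSS cells, and SAT1 differs in the opposite direction, from 76.4 to 185 FPKM.

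Of the urea cycle enzymes, CPS1 was lower in FSS, ASS1 lay at the limit and ASL was within 1.5-fold. CPS1 (ENSG00000021826, chr2:210477682-210679107, plus strand), carbamoyl phosphate synthetase, makes the first intermediate of the cycle in mitochondria. It was at 442 FPKM in static culture against 119 FPKM under FSS. This was 3.69-fold lower (log2 ratio -1.88), and 1.44% of the genes kept had a ratio at or below it. By level, CPS1 stood at percentile 99.3 of genes in the static library and 96.6 in the FSS library, so that it remained an abundant transcript in both. ASS1 (ENSG00000130707, chr9:130444929-130501274, plus strand), which joins citrulline and aspartate to argininosuccinate, was at 243 FPKM in static culture against 162 FPKM under FSS. It lay at the 1.5-fold limit (log2 ratio -0.59, centred -0.35). ASL (ENSG00000126522), which splits argininosuccinate into arginine and fumarate, was at 11.6 and 8.58 FPKM (log2 ratio -0.40). The ASS1 to ASL ratio of FPKM was 20.9 in static and 18.8 in FSS cells, while the CPS1 to ASS1 ratio went from 1.82 to 0.736. With all its listed transcripts summed, CPS1 was thus the higher of the pair in static cells and the lower of it in FSS cells. The long forms of CPS1, described below, were together at 117 FPKM in static and 28.6 FPKM in FSS cells. They were below ASS1 in both libraries.

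Among the other genes of the cycle, OTC and ARG1 were not analysed here, and NAGS, which makes the activator of the CPS1 enzyme, was listed at 0 in both libraries. The mitochondrial ornithine carrier SLC25A15 was at 9.99 and 5.95 FPKM (log2 ratio -0.66, centred -0.43). The list of the cycle and its carriers held 2 kept genes of 6, with 0 higher and 1 lower, or 0 and 0 after centring. Arginine and ornithine use differed by less than 1.5-fold. ARG2, the mitochondrial arginase, was at 2.002 FPKM in static culture against 2.24 FPKM under FSS, the lowest level of the 10 genes in either library. OAT, which converts ornithine towards glutamate and proline, was at 24.0 and 22.8 FPKM (log2 ratio -0.07, centred 0.16). These genes had 1 listed transcript each. The gene of VTI1B overlaps that of ARG2, and strand was not given in the sources used here, so that part of so low a value could belong to either gene. AC068533.4, which is also listed, likewise overlaps ASL, so the same limit holds for the values of ASL.

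**Figure D2:**
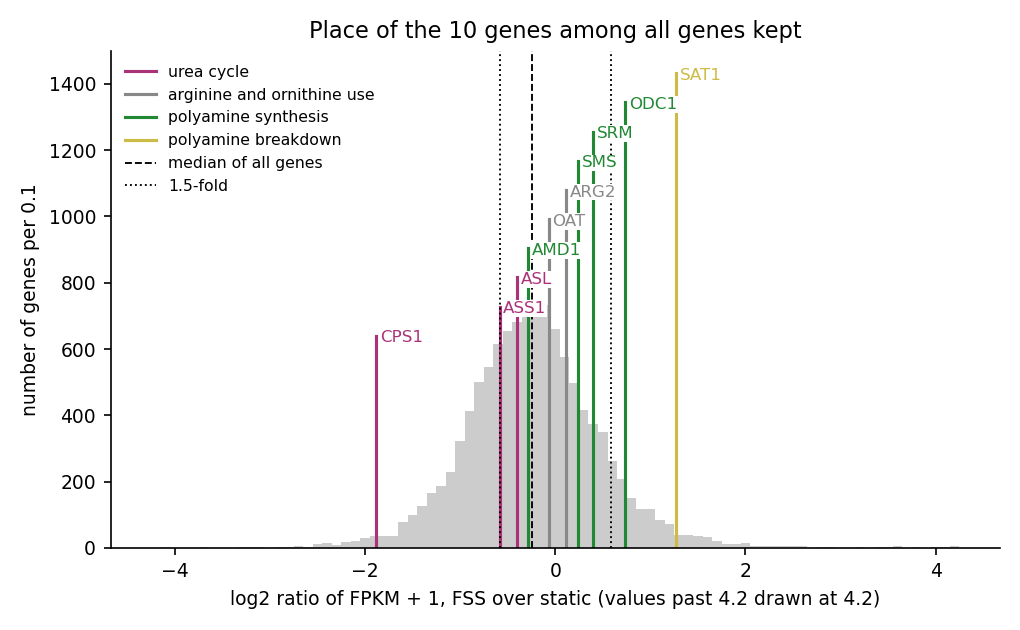
Histogram of the log2 ratio of FPKM + 1, FSS over static, for 11221 genes (grey, number of genes per bin of 0.1), with the 10 genes as lines coloured by role, whose heights only separate the names. CPS1 at -1.88 lies in the lower tail, SAT1 at 1.27 in the upper tail, and ASS1 on the dotted line of 1.5-fold.

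Of the polyamine synthesis enzymes, ODC1 was higher in FSS and the others lay within 1.5-fold as deposited. ODC1 (ENSG00000115758, chr2:10439968-10448504, minus strand), ornithine decarboxylase, makes putrescine from ornithine. It was at 94.5 FPKM in static culture against 158 FPKM under FSS, 1.66-fold higher, with a log2 ratio of 0.73 at percentile 92.5 of the genes kept. AMD1, which makes the aminopropyl donor by decarboxylating S-adenosylmethionine, was at 24.5 and 19.9 FPKM (log2 ratio -0.29, centred -0.05). SRM, spermidine synthase, was at 71.3 and 94.3 FPKM. Its log2 ratio was 0.40, or 0.63 and past 1.5-fold after centring. SMS, spermine synthase, was the most abundant of these enzymes, at 231 and 274 FPKM (log2 ratio 0.24). The median log2 ratio of the 4 synthesis genes was 0.32, and that of the 3 urea cycle genes was -0.59. ODC1 and AMD1, the decarboxylases of the pathway, parted, with an ODC1 to AMD1 ratio of FPKM of 3.86 in static cells and 7.93 in FSS cells. The SMS to SRM ratio was 3.25 and 2.90.

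With all listed transcripts counted, the summed level of the urea cycle enzymes was above that of the polyamine synthesis enzymes in static cells and below it in FSS cells. CPS1, ASS1 and ASL summed to 697 FPKM in static culture against 289 FPKM under FSS. ODC1, AMD1, SRM and SMS summed to 422 and 546 FPKM. The ratio of these sums was 1.65 in static cells and 0.530 in FSS cells. Without CPS1 it was 0.604 and 0.312, so that the crossing rested on CPS1 and the direction did not. It rested on the CPS1 forms that start or end inside the gene. The long forms of CPS1 were at 117 FPKM in static and 28.6 FPKM in FSS cells, and ASS1 with ASL at 255 and 170 FPKM. Counted with the long forms alone, the urea cycle side was below the synthesis side in both libraries. A ratio within a library shows unequal change and not which side moved.

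SAT1 had the highest log2 ratio of the 10 genes. SAT1 (ENSG00000130066), spermidine/spermine N1-acetyltransferase, starts the export and breakdown of polyamines. It was at 76.4 FPKM in static culture against 185 FPKM under FSS, 2.41-fold higher, with a log2 ratio of 1.27 at percentile 97.6 of the genes kept. The SAT1 to ODC1 ratio of FPKM was 0.808 in static cells and 1.18 in FSS cells. SMOX, spermine oxidase, was at 22.8 and 13.9 FPKM (log2 ratio -0.68, centred -0.44).

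Transcripts of 1 gene did not all share a direction. Of the 34 transcripts of the 10 genes, 32 passed the minimum of 0.5 FPKM, with 8 at least 1.5-fold higher and 6 lower. Among all 30339 transcripts kept, 18.4% were higher and 27.9% lower. At 5 FPKM or more there were 15 transcripts, of which 4 were higher, 4 lower and 7 within 1.5-fold, against 19.7% higher and 32.6% lower of 10235 transcripts. Transcript names were matched to GENCODE 29, where all 34 are annotated as protein coding. The version of the gene model agrees for 9 of the genes and differs for CPS1, whose transcript lengths and starts are therefore less certain. Transcripts of a gene share most exons, so their FPKM are estimates of how shared fragments divide.

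CPS1 was lower through 3 of its 4 abundant transcripts. CPS1-204, which starts inside the gene, 115684 bases after the first CPS1 start, and codes for 1049 residues, was at 248 FPKM in static culture against 75.4 FPKM under FSS. Its share of CPS1 was 56.0% in static and 63.3% in FSS cells. CPS1-212, a form of 513 codons that ends inside the gene, was at 75.9 and 14.8 FPKM. The long forms CPS1-203 and CPS1-201 code for 1506 and 1500 residues from different first exons. CPS1-203 was at 94.1 FPKM in static cells and listed at 0 in FSS cells, while CPS1-201 was at 23.3 and 28.6 FPKM. Of 3199 transcripts with at least 20 FPKM in 1 library, 21 were listed at 0 in FSS cells, so a value of 0 at such a level was rare. Together the long forms were at 117 FPKM in static and 28.6 FPKM in FSS cells. Without CPS1-203, CPS1 was at 348 and 119 FPKM (log2 ratio -1.54), so the lower level of CPS1 did not rest on the transcript at 0.

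The call of ODC1 rested on a minor transcript. ODC1-201 was at 94.2 FPKM in static culture against 135 FPKM under FSS (log2 ratio 0.51), which is within 1.5-fold. ODC1-202 was at 0.378 and 23.2 FPKM (log2 ratio 4.13), and went from 0.399% to 14.7% of ODC1. Both code for the same 461 residues. ODC1-202 starts 724 bases further downstream and ends 633 bases earlier. Neither start lies within 50 bases of the start site of the ODC1 window printed above. After centring, ODC1-201 alone was past 1.5-fold, at a log2 ratio of 0.74.

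ASS1, AMD1, SRM and SMS were each led by 1 transcript whose share was similar in the libraries. ASS1-203 held 83.8% of ASS1 in static and 83.4% in FSS cells, and ASS1-201, which codes for the same 412 residues, held 14.5% and 15.2%. ASS1-203 had a log2 ratio of -0.59 (centred -0.36) and ASS1-201 of -0.50. AMD1-204 held 92.5% and 87.0%, SRM-201 98.0% and 96.0%, and SMS-202 97.8% and 98.3%. In ASL no transcript reached 5 FPKM. ASL-203 was at 3.17 and 1.18 FPKM and ASL-204 at 3.90 and 4.22 FPKM, so that ASL-204 went from 33.5% to 49.2% of the gene. ASS1 has 11 pseudogenes named after it in GENCODE 29, AMD1 has 5, SRM 2 and ASL 1. None of these pseudogenes had a row in the table, and reads shared with them could shift the values of these genes.

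**Figure D3:**
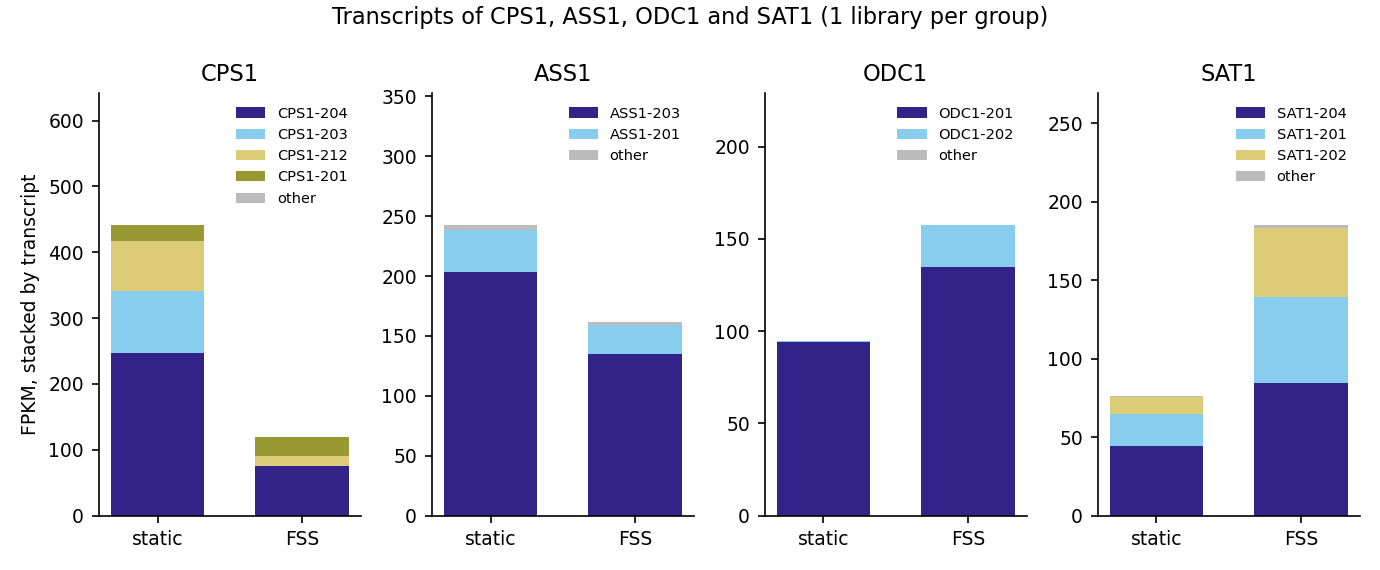
Stacked FPKM of the transcripts of CPS1, ASS1, ODC1 and SAT1 with at least 5 FPKM in 1 library (other transcripts in grey), in the static and the FSS library, each axis starting at 0. CPS1-203 is 94.1 FPKM of the static bar and absent from the FSS bar, ODC1-202 appears in the FSS bar at 23.2 FPKM, and SAT1-201 and SAT1-202 together fill 40.5% of the static and 53.1% of the FSS bar of SAT1.

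All 4 SAT1 transcripts were at least 1.5-fold higher in FSS, the short ones most. SAT1-204, the full-length form of 6 exons and 171 codons, was at 44.7 FPKM in static culture against 84.6 FPKM under FSS (log2 ratio 0.91). SAT1-201, which keeps intron 2 and ends in intron 3, was at 19.9 and 54.3 FPKM (log2 ratio 1.40). SAT1-202, which splices out intron 2 and also ends in intron 3, was at 11.0 and 44.1 FPKM (log2 ratio 1.91). SAT1-203, which lacks exon 3, was at 0.786 and 2.41 FPKM (log2 ratio 0.93, a difference that the pseudocount makes smaller at so low a level). The short forms code for 150 and 120 residues and lack the last 3 exons of the full-length form, so their coding sequence ends in the intron 3 sequence printed above. Together they were at 30.9 FPKM in static and 98.4 FPKM in FSS cells. They went from 40.5% to 53.1% of SAT1, and SAT1-204 from 58.5% to 45.6%. These forms are told from SAT1-204 by intron sequence and by where they end, and the table does not separate a kept intron in mature RNA from RNA not yet spliced.

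**Figure D4:**
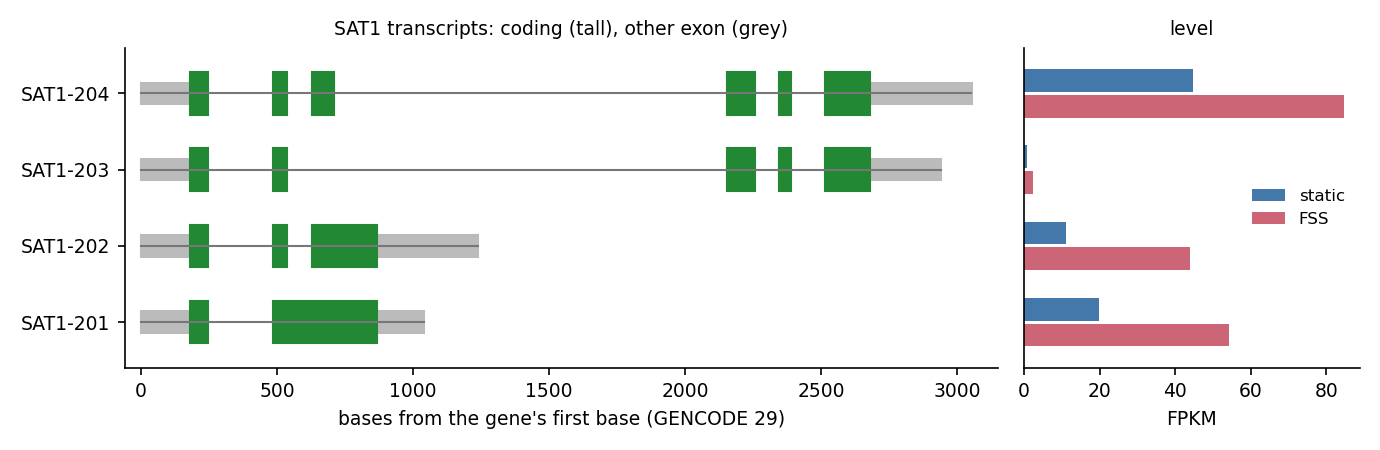
Left, the 4 listed SAT1 transcripts drawn to scale in bases from the first base of the gene, with coding sequence as tall green boxes and other exon sequence in grey. Right, their FPKM in the static and FSS libraries, where SAT1-204 goes from 44.7 to 84.6 FPKM and SAT1-202 from 11.0 to 44.1 FPKM.

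Of the transcripts for proteins that control ornithine decarboxylase, AZIN1 was higher in FSS and OAZ1 was within 1.5-fold. OAZ1, antizyme, binds ornithine decarboxylase and sends it to the proteasome, and AZIN1, the antizyme inhibitor, resembles ornithine decarboxylase and frees it from antizyme. OAZ1 was at 121 FPKM in static culture against 112 FPKM under FSS (log2 ratio -0.11, centred 0.12). AZIN1 was at 22.0 and 67.5 FPKM, 2.98-fold higher, with a log2 ratio of 1.57. The OAZ1 to AZIN1 ratio of FPKM was 5.49 in static cells and 1.65 in FSS cells, and the OAZ1 to ODC1 ratio was 1.28 and 0.707. MAT2B, a regulatory subunit of the enzyme that makes S-adenosylmethionine, was at 14.6 and 6.98 FPKM, and MRI1, of the salvage of methionine, at 22.8 and 14.4 FPKM. In this list of polyamine synthesis partners and control, 2 of 11 kept genes (AZIN1 and OAZ3) were higher and 2 (MAT2B and MRI1) lower, or 2 and 1 after centring. The median of this list was 0.03 on the log2 scale. OAZ3, a further antizyme, was listed at 0 in static cells and had 0.720 FPKM under FSS. In the list of polyamine breakdown and transport, 0 of 7 were higher and 4 (SMOX, SAT2, SLC18B1 and ATP13A2) lower, or 2 and 3 after centring, with a median of -0.68. The vesicular polyamine transporter SLC18B1 was at 15.0 and 7.07 FPKM, and ATP13A2, a lysosomal polyamine exporter, at 10.5 and 5.21 FPKM. None of these 7 genes was on the same side of the limit as SAT1 as deposited.

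Among genes that feed nitrogen and arginine into these pathways, MDH1, GOT2 and MDH2 were lower and the arginine transporter SLC7A1 was higher. MDH1, GOT2 and MDH2, of the shuttle that links aspartate and malate, had log2 ratios of -0.88, -0.74 and -0.60 (centred -0.65, -0.51 and -0.37, so that MDH1 alone stayed past 1.5-fold). GOT1 and the carrier SLC25A13, of the same shuttle, were within 1.5-fold, at log2 ratios of 0.18 and -0.33. MDH1, GOT2 and MDH2 were the 3 lower genes among 8 kept genes of nitrogen entry, of which 1 was lower after centring. SLC7A1, a cationic amino acid transporter that brings arginine into cells, was at 18.5 and 33.9 FPKM (log2 ratio 0.84). AGMAT, a relative of arginase, was at 9.36 and 5.81 FPKM (log2 ratio -0.61, centred -0.37). Of 13 kept genes of arginine, ornithine and proline, 1 was higher and 3 (AGMAT, PYCR3 and ALDH4A1) lower, or 1 and 1 after centring, with a median of -0.29.

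Transcription factors tied to these genes held the widest ratios. MYC, an activator of ODC1 and SRM in many cells, was at 121 FPKM in static culture against 7.01 FPKM under FSS (log2 ratio -3.93). In the library with less MYC, ODC1 had a log2 ratio of 0.73, or 0.51 for ODC1-201 alone. SRM was at 0.40, within 1.5-fold as deposited. A link between MYC and these genes was not tested. MXI1, which competes with MYC for MAX, was lower in FSS, at 21.1 FPKM in static and 3.82 FPKM in FSS cells (log2 ratio -2.20). MXD1, of the same list, differed in the opposite direction, from 0.189 FPKM in static to 6.27 FPKM in FSS cells (log2 ratio 2.61). DDIT3, the stress factor CHOP, went from 6.52 FPKM in static to 87.7 FPKM in FSS cells. NFE2L2, which encodes NRF2, was at 16.5 and 46.4 FPKM. ATF4, an activator of amino acid genes, was at 422 and 341 FPKM (log2 ratio -0.31, centred -0.08). Over all 7 lists, 59 of 75 genes had a row and 58 were kept, with 10 higher and 17 lower, or 14 and 10 after centring. Among all genes kept, 10.5% were higher and 29.5% lower, or 17.8% and 17.9% after centring. The part of the 58 genes that was lower was near that of all genes. Counts of the single lists above stand beside the same shares and are descriptions. The median log2 ratio of the 58 genes was -0.13, against 0.02 for the 10 genes and -0.25 for all genes.

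**Figure D5:**
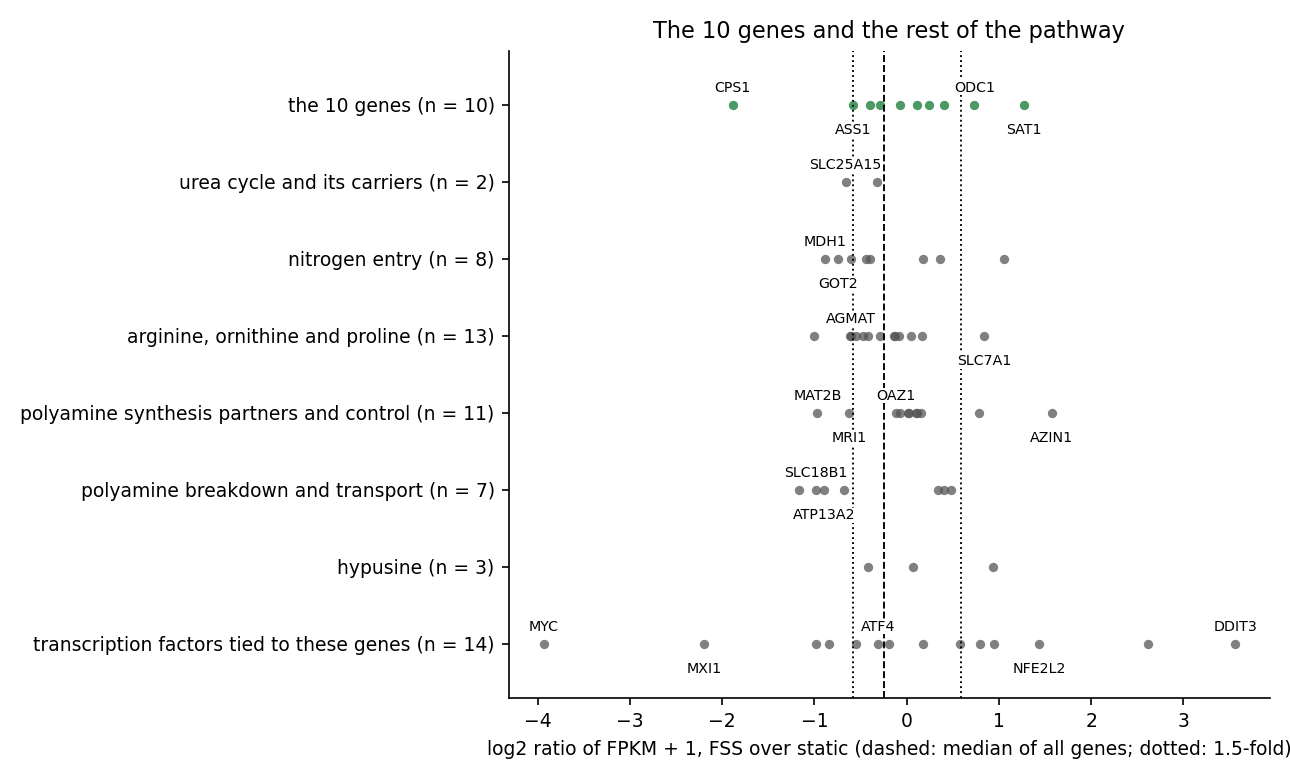
Log2 ratio of FPKM + 1, FSS over static, for each kept gene of the 10 (top row, green) and of 7 lists of related genes (grey), 1 point per gene, with some genes named. The dashed line is the median of all genes at -0.25, and CPS1 at -1.88 and MYC at -3.93 are the lowest points of their rows.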

How the data were processed

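Total RNA of HepG2 cells after FSS and after static culture was sequenced, 1 library each. For each transcript the authors gave an FPKM, which by the study's methods StringTie estimated and Ballgown extracted. Reads had been mapped to hg19. The tools in the submitters' processing notes were HISAT2 2.0.5, cutadapt, StringTie and, in an unstated role, STAR 2.5.2b. The counts behind the estimates are unknown. FPKM were summed per gene symbol, 368 genes under 0.5 FPKM in both libraries were left out, and log2 ratios used a pseudocount of 1. The members and lists were chosen with earlier results of these data known. Named were the 10 genes, their transcripts, up to 4 genes per list past 1.5-fold with a mean of at least 5 FPKM, and OAZ1, AZIN1, SMOX, MYC, ATF4, GAPDH and ACTB. Others were chosen after their values were seen, and 1 gene that the rule takes is not reported here. Promoters came from RefSeq and transcript models from GENCODE 29. Alternatives were a pseudocount of 0.1 or 5, centring, rescaling, the highest transcript, other filters and a fold of 2. The ratio steps were tested on simulated data. Computation used pandas 2.3.3 and numpy 2.4.6 in Python 3.11.15, and figures were drawn with matplotlib 3.10.9.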

Additional observations from a re-analysis of the deposited data

How the results depend on the processing

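CPS1, ODC1 and SAT1 kept their direction under all alternatives run, with log2 ratios no nearer to 0 than -1.54, 0.51 and 0.91. ODC1 was within 1.5-fold, at 0.51, by its highest transcript and without CPS1-203 and ODC1-202, a setting chosen after seeing the data, as was using no pseudocount. ASS1 left the 1.5-fold call with a pseudocount of 5, after centring and after rescaling, so that the urea cycle median was -0.57, -0.35 and -0.58 and the number of lower genes was 1 in each. A fold of 2 also left 1 lower gene, 1 higher gene, 3 higher transcripts, and 5 higher and 4 lower genes of the related lists. The number of higher genes was 1 by the highest transcript and without the 2 named transcripts. Higher transcripts numbered 4 with a pseudocount of 5 or a filter at 5 FPKM, and lower transcripts 3 with a pseudocount of 5. Lower genes of the related lists numbered 9 with a pseudocount of 5 and 10 after centring. The median of ARG2 and OAT, near 0, was -0.0059 with a pseudocount of 5 and -0.069 at 5 FPKM, where OAT alone remained. ASL by its highest transcript was at 0.09. Shares of transcripts moved by at most 0.0572 points when transcripts under 0.5 FPKM were left out. The 1.5-fold limit takes no account of the unknown depth. No paired analysis was possible because each group had 1 library.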

Other observations

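Beside the enzymes above, the salvage of methionine, which recycles the methylthioadenosine that spermidine and spermine synthesis release, differed by less than 1.5-fold, apart from MRI1. MTAP, which opens this salvage, was at 5.05 FPKM in static culture against 5.52 FPKM under FSS, APIP at 13.4 and 14.5 FPKM, ENOPH1 at 13.0 and 14.6 FPKM and ADI1 at 26.2 and 26.4 FPKM, all with log2 ratios between 0.01 and 0.15. MAT2A, which makes S-adenosylmethionine, was at 166 and 158 FPKM. Of proline synthesis from glutamate, ALDH18A1 was at 47.5 and 33.9 FPKM (log2 ratio -0.48), and PYCR1 at 52.4 and 47.4 FPKM.

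Spermidine is also the donor for hypusine, a modified residue of the translation factor eIF5A. EIF5A was at 325 FPKM in static culture against 342 FPKM under FSS (log2 ratio 0.07), and DHPS, which attaches the spermidine part, was at 10.3 and 7.45 FPKM (log2 ratio -0.42). EIF5A2 was low in both libraries, at 0.957 and 2.74 FPKM, and past 1.5-fold higher in FSS (log2 ratio 0.93, centred 1.17). SLC3A2, the heavy chain shared by several amino acid transporters, was at 148 and 208 FPKM (log2 ratio 0.49, centred 0.72 and then past 1.5-fold). ASNS, which makes asparagine, was at 74.3 and 96.1 FPKM. SAT2, related to SAT1, was at 5.27 and 1.80 FPKM (log2 ratio -1.17). These genes were in the lists but outside the rule for named genes, and were chosen after their values were seen.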
